A study of Petunia x hybrida with 12 samples.

Results

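The comparison concerns pistils of unopened petunia flowers, collected at 14:00 on day -1, the day before opening, from plants carrying an RNA interference (RNAi) construct against PhTPS1 and from wild-type plants. The 6 libraries of that day, 3 labelled tps1 and 3 labelled WT, were taken by their labels out of 12 libraries in the series. The other 6 are the day +1 pistils of the same genotypes, also collected at 14:00. The cultivar was Mitchell, a white-flowered Petunia x hybrida much used in scent research, and polyadenylated RNA was sequenced. The labels give neither the promoter of the RNAi construct nor the number of transgenic lines, and neither group carries a construct without the PhTPS1 target, so that loss of PhTPS1 and any other effect of transformation cannot be told apart. Nothing states that replicates were separate plants, so p-values measure the spread between libraries alone, and that spread may be technical.

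Terpene synthases turn short prenyl diphosphates into the terpenes of scent and defence, and PhTPS1 forms volatile sesquiterpenes in the petunia flower. These volatiles build up around the pistil while the flower is still closed. KAI2 is an alpha/beta-hydrolase receptor best known in Arabidopsis for the response to karrikins, small molecules from smoke, and it acts with the F-box protein MAX2 to have SMAX1-type repressors degraded. By its title, the study concerns a KAI2 pathway in the perception of plant volatiles. The question of the comparison is which transcripts of the closed flower's pistil depend on the genotype.

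The deposited table held read counts for 35812 gene IDs, which start with Peaxi162 and a scaffold number. The file does not pair them with names. PhTPS1, KAI2, its partners and markers of the pistil or of other tissues were therefore not looked up, neither the knockdown nor the tissue was checked, and no sequence, coordinate or gene function is given here. Library totals were 25625763 to 29757361 counts in tps1 and 21058118 to 30357964 counts in WT at day -1. Of the 35812 IDs, 10074 had 0 counts in all 6 libraries. A filter on low counts over all 12 libraries passed 21239 IDs, which were tested and include some without a count at day -1. On the 6 day -1 libraries alone the filter passed 19865. Levels are given in CPM, the count divided by the normalized library size on the customary CPM scale, with no correction for transcript length.

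The libraries did not group by genotype over the transcriptome as a whole. The measure used was the number of IDs at least 2-fold apart between a pair of libraries, on log2(CPM + 0.5), among IDs at 5 CPM or more in at least 1 of the pair. Between tps1 and WT libraries this number ran from 177 to 1222 over 9 pairs, with a median of 643. Between libraries of the same genotype it ran from 228 to 1154 over 6 pairs, with a median of 675.5. The ranges overlapped almost fully.

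Replicate 2 of tps1 stood apart from its group. It differed by at least 2-fold from tps1 replicates 1 and 3 at 1011 and 1154 IDs, while tps1 replicates 1 and 3 differed from each other at 228. The library nearest to it was WT replicate 3, with 177 IDs, the lowest number of all 15 pairs. By this number tps1 replicate 1 was likewise nearest to WT replicate 1, with 188 IDs. Other measures placed tps1 replicate 1 nearest to tps1 replicate 3. The median absolute log2 difference was 0.106 to tps1 replicate 3 and 0.121 to WT replicate 1, and the Pearson correlations were 0.993 and 0.990. By these measures too, tps1 replicate 2 was nearest to WT replicate 3, at 0.144 and 0.989. Replicate 2 of WT differed from every other library at 455 to 1222 IDs.

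**Figure D1:**
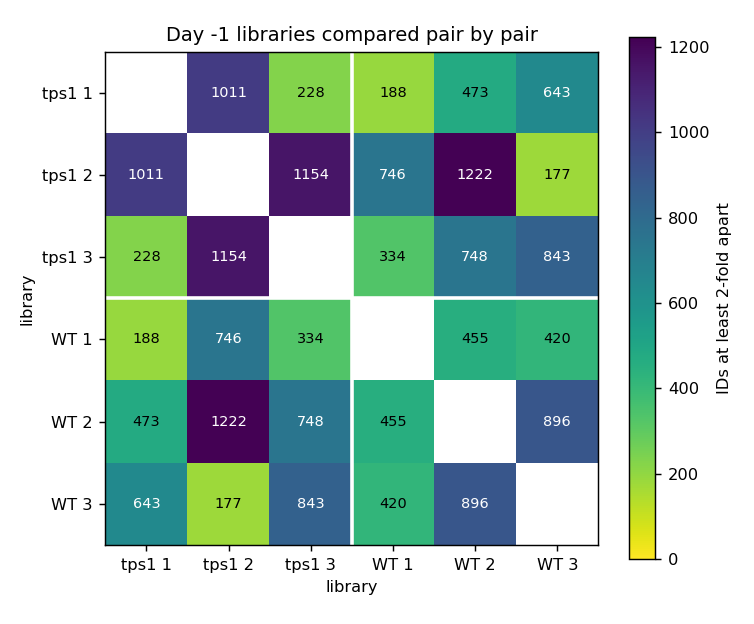
Number of IDs at least 2-fold apart between each pair of the 6 day -1 libraries, rows and columns being libraries by genotype and replicate number and white lines separating tps1 from WT. The lowest numbers, 177 and 188, join libraries of different genotype, and tps1 replicate 2 is 1011 and 1154 IDs away from its own group.

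The 2 libraries numbered 2 differed from their groups in different ways. In tps1 replicate 2, 62 IDs lay at least 4-fold above and 119 at least 4-fold below both other tps1 libraries, among IDs that reached 5 CPM in a tps1 library. The corresponding numbers were 0 and 0 for tps1 replicate 1 and 18 and 0 for tps1 replicate 3. In WT replicate 2, 247 IDs lay at least 4-fold above both other WT libraries and 6 below. For WT replicate 1 they were 16 and 7, and for WT replicate 3 they were 4 and 39. None of the IDs called between the genotypes below was among these sets. Such a departure widens the spread at an ID and makes a call unlikely, so nothing is read from this.

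IDs that set tps1 replicate 2 apart were shifted in WT replicate 3 as well. The median of the 62 IDs was 1.84, 15.2 and 1.98 CPM in tps1 replicates 1, 2 and 3, against 2.61, 2.33 and 8.31 CPM in WT replicates 1, 2 and 3. The median of the 119 IDs was 51.8, 4.60 and 73.2 CPM in the tps1 libraries, against 42.1, 51.6 and 10.1 CPM in the WT libraries. At day +1 the median of the 62 was 30.7 to 33.3 CPM in tps1 and 37.7 to 39.5 CPM in WT, and that of the 119 was 14.0 to 15.7 and 14.4 to 14.9 CPM. In both sets tps1 replicate 2 and WT replicate 3 thus lay on the day +1 side of the other 4 libraries, though at the 119 IDs they lay below the day +1 medians. The part that the stage of the pistils has in this was not tested.

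Single IDs show the size of these shifts. Peaxi162Scf00105g00026, the ID furthest above its group in tps1 replicate 2, stood at 0.477, 123 and 0.586 CPM in tps1 replicates 1, 2 and 3, against 3.93, 2.23 and 129 CPM in WT replicates 1, 2 and 3. Peaxi162Scf00444g00238, the ID furthest below, stood at 2699, 35.4 and 3663 CPM in tps1, against 1243, 2379 and 70.8 CPM in WT. In both, 1 library of each genotype differed from the rest over 10-fold, and the ranges of the genotypes overlapped (edgeR adjusted p = 0.998 and 0.936).

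The IDs higher in WT replicate 2 were a different group. The median of the 247 was 0.110, 0.0317 and 0.0733 CPM in the tps1 libraries, against 0, 17.0 and 0.294 CPM in the WT libraries. At day +1 it was 67.4 to 131 CPM in tps1 and 18.4, 41.2 and 155 CPM in WT. The furthest of them, Peaxi162Scf00036g00035, stood at 0.514, 0.349 and 0.330 CPM in tps1 replicates 1, 2 and 3, against 0.133, 189.9 and 1.35 CPM in WT replicates 1, 2 and 3. Its fitted log2 fold change of -7.31 rested on that 1 library and did not pass the test (edgeR adjusted p = 0.398). The furthest below, Peaxi162Scf00007g00125, stood at 4.47 to 5.96 CPM in tps1, against 5.70, 0.131 and 6.18 CPM in WT.

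Few transcripts differed between the genotypes beyond this spread. In tps1 pistils 25 IDs were higher (0.118% of the tested IDs) and 14 lower (0.0659%) than in WT, 39 in all or 0.184% (edgeR quasi-likelihood test, Benjamini-Hochberg adjusted p under 0.05, fitted on all 12 libraries). An unadjusted p under 0.05 was found for 1637 IDs. Whole pistils were sequenced, in which fewer cells of a type and less RNA per cell cannot be told apart. The median log2 fold change over all tested IDs was -0.02, with 5th and 95th percentiles of -0.84 and 0.47. For 16419 IDs, 77.3%, the 95% interval of the fold change lay within 2-fold in either direction, and for 12056 IDs, 56.8%, within 1.5-fold. These numbers include tested IDs without a count at day -1, whose fold change and SE both came out as 0 and which bound nothing. How many these are was not counted. At the others within these limits a larger difference was outside the interval. At the remaining IDs these libraries do not bound it that closely.

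**Figure D2:**
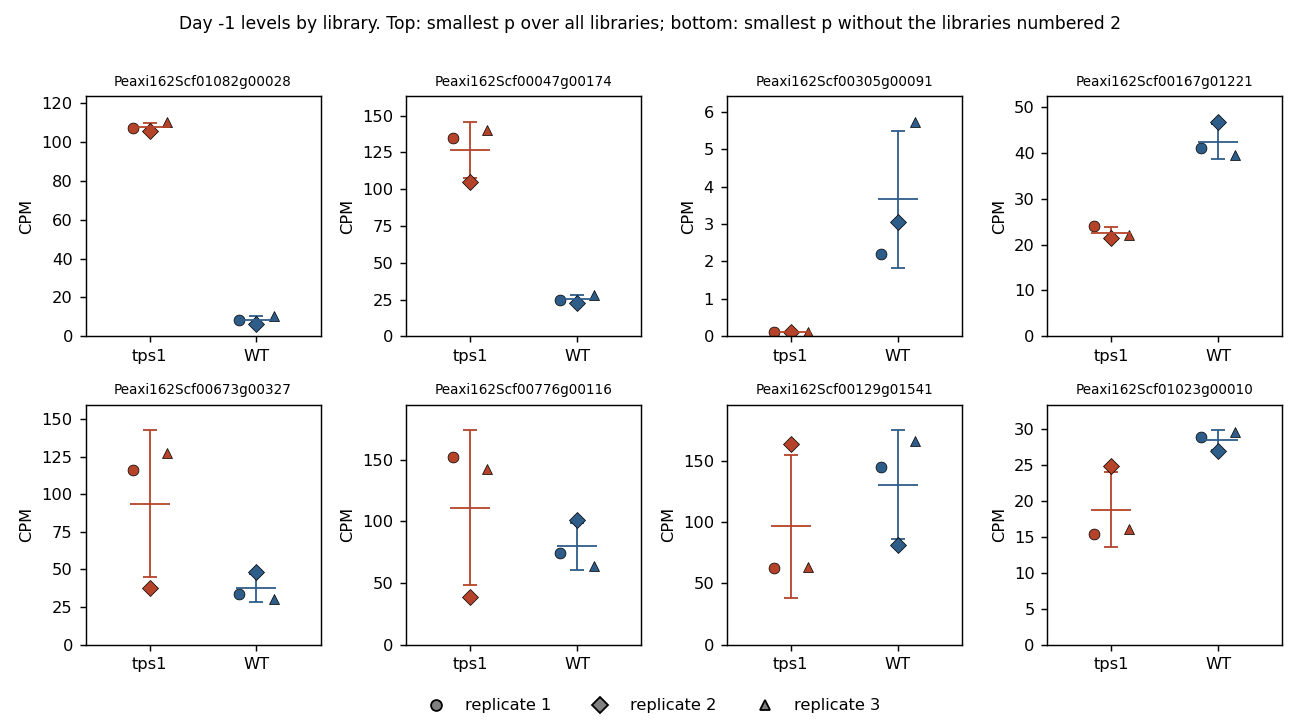
Level of 8 IDs in CPM (vertical axis, from 0) in tps1 (left, red) and WT (right, blue) at day -1, with marker shape for the replicate number and horizontal lines for the mean and 1 SD of 3 libraries. In the upper row all tps1 libraries lie apart from all WT libraries, while in the lower row tps1 replicate 2 (diamond) lies far from the other tps1 libraries.

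The clearest difference was at Peaxi162Scf01082g00028. It stood at 107, 106 and 110.3 CPM in tps1 replicates 1, 2 and 3, against 8.31, 6.15 and 10.5 CPM in WT replicates 1, 2 and 3. The tps1 libraries were nearly equal, and the groups were far apart. The means were 108 ± 2.41 CPM in tps1 and 8.32 ± 2.19 CPM in WT (SD, n = 3 each; log2 fold change 3.70 ± 0.17 SE, 95% interval 3.32 to 4.07, edgeR adjusted p = 1.02e-05).

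Peaxi162Scf00047g00174 was also higher in every tps1 library. It stood at 135, 105 and 139.9 CPM in tps1, against 24.97, 22.7 and 28.2 CPM in WT, with tps1 replicate 2 the lowest of its group but well above all WT libraries. The means were 127 ± 19.0 CPM in tps1 and 25.3 ± 2.76 CPM in WT (SD, n = 3 each; log2 fold change 2.32 ± 0.13 SE, 95% interval 2.04 to 2.60, edgeR adjusted p = 3.15e-05). Each of these 2 rising IDs was called under 21 of 22 alternatives. Neither was called with the replicate number as a block on the day -1 libraries alone (edgeR adjusted p = 0.137 for both).

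Among the IDs that fell, Peaxi162Scf00305g00091 was close to absent in tps1, at 0.110, 0.127 and 0.110 CPM, against 2.21, 3.06 and 5.72 CPM in WT. These levels rest on 10 counts over the tps1 libraries and 279 over the WT libraries, a WT to tps1 ratio of 31.3 with an exact 95% interval of 16.7 to 65.9 that covers counting error only. The groups did not overlap (edgeR log2 fold change -4.92 ± 0.46 SE, adjusted p = 0.00283).

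Peaxi162Scf00167g01221 showed a smaller but even difference. It stood at 24.1, 21.4 and 22.1 CPM in tps1, against 41.2, 46.8 and 39.6 CPM in WT. The means were 22.5 ± 1.35 CPM in tps1 and 42.5 ± 3.76 CPM in WT (SD, n = 3 each; log2 fold change -0.92 ± 0.09 SE, 95% interval -1.11 to -0.72, edgeR adjusted p = 0.00327). Both falling IDs were not called when the day -1 libraries were fitted alone (edgeR adjusted p = 0.0873 and 0.164; ranges over 22 alternatives from 1.35e-13 to 0.524 and from 2.01e-16 to 1.00).

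The 39 IDs differed in size and level. Of the 25 that rose, 7 rose less than 2-fold, 12 between 2 and 8-fold and 6 over 8-fold by fitted fold change. Of the 14 that fell, 2 fell less than 2-fold, 7 between 2 and 8-fold and 5 over 8-fold. A mean under 10 CPM over the 6 libraries was found for 10 of the 14 falling IDs, 11 of the 25 rising IDs and 41.3% of all tested IDs. A mean under 1 CPM was found for 7 of the 39. In 8 of the 39, the lower genotype had 10 or fewer counts over its 3 libraries, and the size of the fitted fold change there depends on edgeR's prior count. No ID of the whole table had 0 counts in every library of 1 genotype and at least 5 in every library of the other.

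One called ID carried most of the reads of the 39 called IDs. Peaxi162Scf00803g00534, named after its values were seen, stood at 3362, 4139.9 and 3179.8 CPM in tps1, against 1217, 1595 and 1973 CPM in WT. All tps1 libraries were higher than all WT libraries, with WT replicate 3 the nearest. The means were 3561 ± 509.9 CPM in tps1 and 1595 ± 378 CPM in WT (SD, n = 3 each; log2 fold change 1.16 ± 0.18 SE, edgeR adjusted p = 0.0463). Of the 6 fits without 1 library, it was called in 2, those without tps1 replicate 2 and without WT replicate 3. It took 0.357, 0.439 and 0.333% of the counts in the tps1 libraries and 0.131, 0.160 and 0.208% in the WT libraries. All 39 IDs together took 0.414 to 0.513% in tps1 and 0.171 to 0.247% in WT.

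Some called IDs lay on the same scaffold. The 39 IDs fell on 35 scaffolds, and 7 of them shared 3 scaffolds. Both tested IDs of Peaxi162Scf03648 rose in tps1. Peaxi162Scf03648g00020 stood at 4.81, 5.74 and 3.63 CPM in tps1, against 0.309, 0.361 and 0.168 CPM in WT. Peaxi162Scf03648g00013 stood at 45.0, 31.5 and 43.2 CPM in tps1, against 10.6, 11.2 and 5.13 CPM in WT. At neither ID did the genotypes overlap, and both were called in all 6 fits without 1 library. These IDs and those of the next paragraph were named after their values were seen.

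Peaxi162Scf01082 held 9 tested IDs, of which 3 were called. Besides Peaxi162Scf01082g00028, Peaxi162Scf01082g00025 rose, at 4.41, 5.07 and 6.41 CPM in tps1 against 0.177, 0.0657 and 0.589 CPM in WT. Peaxi162Scf01082g00314 fell, with 3 counts over the tps1 libraries and 61 over the WT libraries, and of the 6 fits without 1 library it was called in 1, that without tps1 replicate 2. Of the 45 tested IDs of Peaxi162Scf00258, 2 were called, and they moved in opposite directions. Peaxi162Scf00258g00045 averaged 22.9 ± 4.16 CPM (SD, n = 3) in tps1 libraries and 11.1 ± 0.862 CPM in WT libraries. Peaxi162Scf00258g00013 averaged 1.32 ± 0.410 CPM (SD, n = 3) in tps1 libraries and 8.81 ± 3.38 CPM in WT libraries. They were called in 1 and 2 of the 6 fits without 1 library. Reads that could belong to near-identical neighbouring copies cannot be recognised from these IDs, so IDs of 1 scaffold may not be independent.

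**Figure D3:**
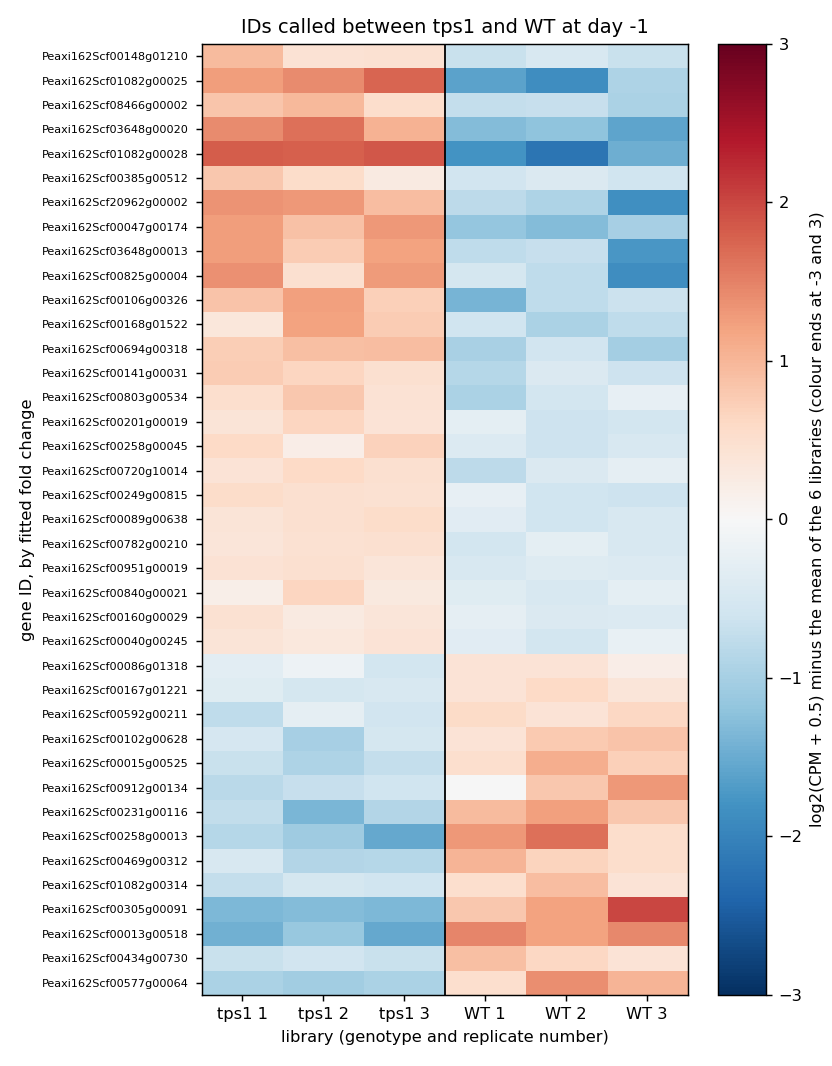
The 39 called IDs (rows, by fitted fold change) in the 6 day -1 libraries (columns, tps1 left of WT), coloured by log2(CPM + 0.5) minus the mean of the 6 libraries. The 25 rising IDs are above and the 14 falling IDs below, and tps1 replicate 2 has the same colour side as its group in every row.

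Single libraries agreed on these 39 IDs. At all 39 every tps1 library lay on 1 side of every WT library, which was so for 7.97% of the tested IDs. The gap between the nearest libraries of the 2 genotypes had a median of 0.94 and ran from 0.36 to 3.27 on log2(CPM + 0.5). At 17 IDs it was over 1. Replicates 1, 2 and 3 of tps1 were the ones nearest to WT at 15, 14 and 10 IDs, and WT replicates 1, 2 and 3 were nearest to tps1 at 13, 11 and 15. The libraries that stood apart over the transcriptome were therefore not regularly the ones nearest to the other genotype here. Selection for a small p favours IDs with separated groups, so this describes the calls and does not support them.

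The number of called IDs depended on single libraries. It was 243 (1.14% of 21367 tested; 107 higher and 136 lower) without tps1 replicate 2. It was 19 and 22 without tps1 replicates 1 and 3, and 20, 23 and 36 without WT replicates 1, 2 and 3. Of the 39 IDs, 39 were still called without tps1 replicate 2, 29 without WT replicate 3 and 19 or 20 without any 1 of the other 4 libraries. In all 6 of these fits 14 of the 39 were called, 9 higher and 5 lower in tps1, and the 4 IDs described first were among them. When the 6 day -1 libraries were fitted alone, 4 IDs were called (0.0201%), all of them higher in tps1 and all among the 39.

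**Figure D4:**
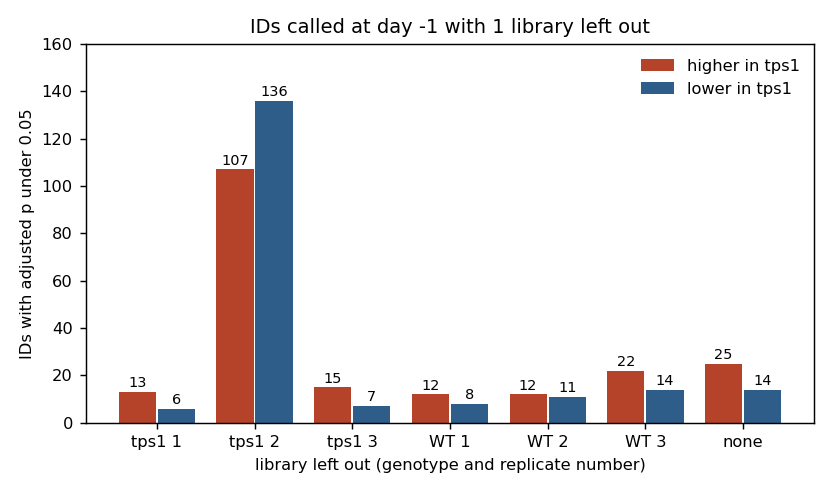
Number of IDs with an edgeR adjusted p under 0.05 (vertical axis) that were higher (red) or lower (blue) in tps1, by the library left out of the fit. Without tps1 replicate 2 there were 107 and 136, and with no library left out 25 and 14.

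The library left out can be set against the calls made without it. For each call, the left-out library was compared with the mean of the other genotype, and its direction with that of the call. The other genotype also entered the call, so this is a description and not a test. Without tps1 replicates 1 and 3, the left-out library lay on the called side at 19 of 19 and 22 of 22 IDs. Without WT replicates 1, 2 and 3 it did so at 20 of 20, 23 of 23 and 36 of 36. Over all tested IDs the direction was shared by 49.9 to 64.2% in these 5 fits.

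For tps1 replicate 2 the outcome was otherwise. Without it, 243 IDs were called, and it lay on the called side at 117 of them, 48.1%, against 47.7% over all tested IDs. Its value went beyond all 3 WT values in the direction of the call at 100 of the 243, lay within the WT range at 42 and went beyond it in the opposite direction at 101.

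**Figure D5:**
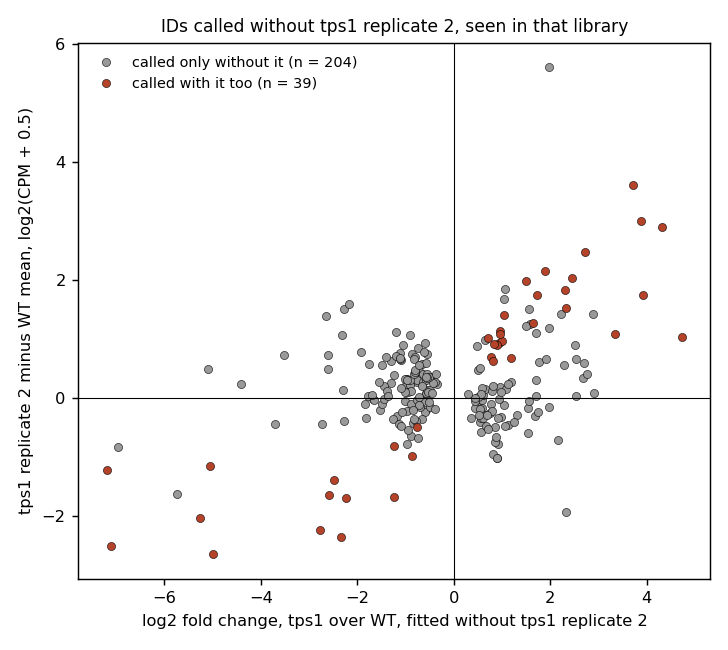
Each point is 1 of the 243 IDs called without tps1 replicate 2, by its log2 fold change in that fit (horizontal axis) and by the left-out library minus the WT mean on log2(CPM + 0.5) (vertical axis). The directions match at 117 of the 243. The colours mark the 39 IDs called with all libraries (red) and the rest (grey), a split that itself uses tps1 replicate 2.

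Leaving out both libraries numbered 2 gave 364 IDs (1.71% of 21288 tested; 156 higher and 208 lower in tps1). They included 35 of the 39. The left-out libraries were here compared with the midpoint between the means of the libraries kept, not with the mean of the other genotype. Replicate 2 of tps1 lay on the tps1 side at 74 of the 364, 20.3%, against 31.8% over all tested IDs. Replicate 2 of WT lay on the WT side at 244, 67.0%, against 51.9% over all tested IDs. Both did at 59.

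The next 4 IDs had the smallest p of each direction in that fit among IDs not called with all libraries. That choice favours IDs at which a left-out library departs from its group, so they are given as examples. Peaxi162Scf00673g00327 stood at 116, 37.6 and 127 CPM in tps1 replicates 1, 2 and 3, against 33.8, 48.1 and 30.4 CPM in WT replicates 1, 2 and 3. Its log2 fold change was 1.92 ± 0.10 SE without both libraries (edgeR adjusted p = 0.000129) and 1.32 ± 0.36 SE with all (edgeR adjusted p = 0.385; range over 22 alternatives from 4.10e-50 to 1.00). Replicate 2 of tps1 lay within the WT range there.

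At Peaxi162Scf00776g00116 it lay below all WT libraries, at 152, 38.5 and 142 CPM in tps1 against 73.9, 101 and 63.8 CPM in WT. Peaxi162Scf00129g01541 was the reverse, at 62.6, 164 and 63.6 CPM in tps1 against 145, 81.2 and 166 CPM in WT, where each library numbered 2 lay nearer to the other genotype. Peaxi162Scf01023g00010 stood at 15.4, 24.8 and 16.1 CPM in tps1, against 28.9, 26.9 and 29.5 CPM in WT. At that ID the genotypes did not overlap, yet tps1 replicate 2 was nearer to WT than to its own group. With all libraries these 3 IDs had edgeR adjusted p-values of 0.846, 0.848 and 0.330.

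The balance of higher and lower IDs varied with the libraries. By fitted value alone, 311 IDs were higher and 938 lower in tps1 by over 2-fold. Without WT replicate 2 there were 486 and 484. Without tps1 replicate 2 there were 369 and 1373, and without both 584 and 954. The number of calls also depended on the test. DESeq2 called 399 IDs (1.88% of the 21171 with an adjusted p), 113 higher and 286 lower in tps1, and these included all 39. Among the 286 lower IDs, WT replicate 2 was at least 4-fold above both other WT libraries at 179. This count has no limit on level, unlike the sets above that needed 5 CPM, and the share over all tested IDs is not given. The genotypes did not overlap at 106 of the 113 higher and at 111 of the 286 lower IDs, against 7.97% of all tested IDs. Selection for a small p favours IDs with separated groups, so these counts describe the calls and do not support them.

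The day +1 libraries give a view of the genotype labels that does not use the genotype difference at day -1. With only the day +1 libraries fitted, 65 IDs differed over 2-fold between tps1 and WT (edgeR adjusted p under 0.05) and averaged 1 CPM or more across the day -1 libraries, a limit on level that ignores genotype. At day -1, tps1 replicates 1, 2 and 3 lay on the tps1 side of the mean of the 6 libraries at 47, 50 and 53 of these 65 IDs. WT replicates 1, 2 and 3 lay on that side at 9, 10 and 17. The median shift towards the tps1 side was 0.29, 0.48 and 0.35 in the tps1 libraries and -0.42, -0.38 and -0.38 in the WT libraries, on the log2 scale. Each library that stood apart thus lay with its labelled genotype at most of these IDs. Of the WT libraries, replicate 3 lay on the tps1 side most often. The same shares over all tested IDs were not computed, and whether the labels are right was not tested.

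Of the 39 IDs, 22 were also called at day +1 in the same direction, where 85 of all tested IDs were called (0.4%). The fit shares 1 estimate of spread per ID between the days. A difference of the genotype effect between the days was called at 0 of the 39 (edgeR interaction, lowest adjusted p 0.186) and at 1 of all tested IDs (0.00471%). Its unadjusted p was under 0.05 at 18 of the 39 and at 1300 of all tested IDs (6.12%). The 39 were chosen by the day -1 difference, which is part of the interaction, so nothing is read from these shares.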

How the data were processed

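Polyadenylated RNA of petunia pistils was sequenced in 4 groups of 3 libraries, and the tps1 and WT groups of day -1 are compared here. The values are raw read counts per gene ID, as deposited by the authors. Per the submitters' processing notes, cutadapt, TopHat2 and HTSeq were used. Versions, genome build, annotation and strand setting: not given in the sources used here. Each of the 12 columns carries a name found in 1 sample description.

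Analysis used R 4.3.3 with edgeR 4.0.16, limma 3.58.1 and DESeq2 1.42.0. IDs were kept by filterByExpr (minimum count 10, scaled to depth, in at least 3 of the 12 libraries), which kept at least 99.95% of the counts of every day -1 library. After TMM scaling, edgeR's quasi-likelihood model with 4 group means was fitted to all 12 libraries, so that day +1 adds to the estimate of spread (biological coefficient of variation 24.6%). P-values were adjusted by Benjamini-Hochberg over all tested IDs, with a threshold of 0.05. The SE is the log2 fold change divided by the square root of F, an approximation. Single libraries were compared on log2(CPM + 0.5). An exact permutation test of 3 against 3 cannot go below p = 0.1 and was not used. The fit was tested on simulated data. Within groups, libraries differed by more than sampling noise (chi-square over its degrees of freedom 17.2 to 115), so no library was treated as a duplicate. Intervals on counts cover counting error only.

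Named IDs were the 2 rising and 2 falling IDs of smallest p with all libraries, the same without both libraries numbered 2 among IDs not called before, and the ID furthest above and below its group in each of these libraries. The comparison and these rules were chosen with earlier results of these data known. Lists of genes by function or tissue, planned in case names were given, were not used.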

Additional observations from a re-analysis of the deposited data

How the results depend on the processing

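The count of 39 called IDs was recomputed under 22 alternatives and stayed within 1.5 times under 6: another scaling (RLE), 2 other filters on low counts, limma-voom, removal of 577 IDs at least 4-fold apart between WT day +1 replicates 3 and 2, and leaving out WT replicate 3. With 1 day -1 library left out it ran from 19 to 243. It was 399 with DESeq2, and with DESeq2 it was 1332 (477 higher, 855 lower) without tps1 replicate 2, 136 (69 higher, 67 lower) without WT replicate 2 and 1266 (501 higher, 765 lower) without both. It was 81 (39 higher, 42 lower) with limma-voom and library quality weights, where tps1 replicate 2 had the lowest weight, 0.162. It was 15 in a test against a 1.5-fold change, 4 with the day -1 libraries alone, 364 without both libraries numbered 2, and 2 without both and alone. The cause was not tested. The fits alone have fewer libraries, take no estimate of spread from day +1 and test fewer IDs, and these cannot be told apart.

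The replicate number as a replicate block gave 4 calls within each day over 12 libraries and 0 with day -1 alone (edgeR; unadjusted p under 0.05 at 517 IDs). No label says that the numbers pair the libraries. Deviations of same-numbered tps1 and WT libraries from their group means correlated at 0.19, -0.21 and -0.42 across IDs for numbers 1, 2 and 3. Replicate 2 of tps1 correlated best with WT replicate 3, at 0.56. The deviations within a group sum to 0, so these correlations are not independent of one another, and pairing by number was not tested. The 2 rising and 2 falling IDs of smallest p kept their direction in all 22 alternatives, with calls in 21, 21, 18 and 17, rising IDs first. The median over all IDs, the sets standing apart in the libraries numbered 2 and the share of calls matched by tps1 replicate 2 (47.7% with RLE, tried after the data were seen) changed little with RLE scaling.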
